A study of Mus musculus with 8 samples.

Results

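Solitary chemosensory cells of the nose are scattered epithelial cells that carry the taste signalling cascade and resemble the tuft cells of gut and airway. In these cells a taste-type receptor acts through a G protein on a phospholipase, which raises inositol trisphosphate. The calcium released by the inositol trisphosphate receptor opens the cation channel Trpm5. The cells can then release acetylcholine onto nearby nerve endings or secrete the cytokine Il25, which acts on type 2 immune cells, and their identity depends on the transcription factor Pou2f3. Such cells have been described in the mouse vomeronasal organ, mostly near the duct by which fluid enters.

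The set described here holds 10 marker genes of these cells, found by their gene symbols among the 48831 genes of the files. It comprises the receptor Tas1r3, the cascade genes Gnat3, Plcb2, Itpr3 and Trpm5, the transcription factors Pou2f3 and Gfi1b, the cytoskeletal gene Avil, and the output genes Chat and Il25. All 10 had at least 1 read, and 8 of the 10 were among the 20601 genes that passed the low-count filter. Il25 and Chat did not pass and were not tested.

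The libraries were made from polyA-selected RNA of the vomeronasal epithelium of C57BL/6J mice aged 8 weeks, in a study concerned with vomeronasal receptor genes. The 8 libraries formed 4 groups of 2, namely male non-flushed pools, female non-flushed pools, male flushed mice and female flushed mice. Each pool held tissue of 2 mice and each flushed library tissue of 1 mouse, and no transgene or drug is named in the labels. The descriptions call the pools non-flushed, although the protocol text shared by all libraries mentions flushing of blood with heparin, and the descriptions were followed. Preparation coincided with pooling, with the lane in the deposited names and with the folder date in the file headers, so these cannot be told apart.

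The pools had library totals between 18763557 and 22096792 reads, and the flushed libraries had totals between 22101913 and 24965088. The tissue marker Omp, the olfactory marker protein of mature sensory neurons, averaged 396 CPM, that is, counts per 1000000 reads of the scaled library size. The channel gene Trpc2 was listed at 0 in every library, because 100% of its exon bases are shared on the same strand with Xndc1 and Xntrpc and reads over more than 1 gene were not counted. In bulk tissue, fewer cells of a type and less RNA per cell cannot be told apart. By preparation, 10 of 11 erythroid genes, 8 of 9 neutrophil genes and 6 of 8 platelet genes were lower in the flushed libraries and none was higher (edgeR adjusted p under 0.05). Over all 20601 tested genes 22.9% were lower and 22.6% higher.

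Pou2f3 belongs to the factors that bind the octamer sequence, so the promoter windows of the set were read for its letters. The windows run from 250 bases before to 50 bases after a gene's start in RefSeq (GRCm38.p6), and 8 of the 10 genes had one, all but Pou2f3 and Il25. The search took ATGCAAAT on either strand, and its 7-letter parts ATGCAAA and TGCAAAT, which lie inside the full octamer and overlap each other. The full octamer was found in 1 of the 8 windows, that of Itpr3, and in 570 of all 32851 windows (1.74%). Any of the 3 words was found in 3 of the 8 windows and in 6.82% of all windows. The windows with a match are shown on their gene's strand, 5′ to 3′, with matched letters in capitals, to show where in each window the letters lie.

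Itpr3: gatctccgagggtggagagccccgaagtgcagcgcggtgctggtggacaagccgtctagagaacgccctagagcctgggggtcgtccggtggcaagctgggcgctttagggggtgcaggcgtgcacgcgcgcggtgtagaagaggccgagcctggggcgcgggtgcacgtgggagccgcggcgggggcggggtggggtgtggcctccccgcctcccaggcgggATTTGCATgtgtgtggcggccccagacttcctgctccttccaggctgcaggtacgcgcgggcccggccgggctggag
Chat: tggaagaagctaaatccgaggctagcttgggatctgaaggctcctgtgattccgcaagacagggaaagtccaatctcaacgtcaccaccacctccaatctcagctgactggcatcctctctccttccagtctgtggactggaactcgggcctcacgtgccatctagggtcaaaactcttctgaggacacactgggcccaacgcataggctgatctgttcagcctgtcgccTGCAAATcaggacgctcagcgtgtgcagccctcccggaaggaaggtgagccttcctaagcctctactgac
Avil: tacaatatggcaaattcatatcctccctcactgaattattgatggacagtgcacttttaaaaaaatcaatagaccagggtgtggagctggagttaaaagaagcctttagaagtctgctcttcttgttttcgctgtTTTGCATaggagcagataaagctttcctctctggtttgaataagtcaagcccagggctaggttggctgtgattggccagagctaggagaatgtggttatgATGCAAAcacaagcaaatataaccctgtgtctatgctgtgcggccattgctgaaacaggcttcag

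The Itpr3 window lies at chr17:27057054-27057353 on the plus strand, and its octamer, on the reverse strand, begins 27 bases before the start. The Chat window lies at chr14:32465860-32466159 on the minus strand, with TGCAAAT beginning 20 bases before the start. The Avil window lies at chr10:127000459-127000758 on the plus strand and holds 2 matches, TTTGCAT beginning 115 bases and ATGCAAA beginning 15 bases before the start. A match describes the letters of the window only. The windows of Trpm5, Gnat3, Plcb2, Tas1r3 and Gfi1b held none of these letters.

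Levels between genes were compared per exon length, as CPM per kilobase of exon (RPKM). Itpr3, the type 3 inositol trisphosphate receptor, stood highest at 11.6 ± 1.79 RPKM (SD, n = 8), above 81.1% of the tested genes. Gnat3, which encodes the taste G protein subunit gustducin, followed at 3.89 RPKM, close to the 3.63 RPKM of the median tested gene. Neither range overlapped that of the gene next below it. Plcb2, the phospholipase of the cascade, averaged 1.64 RPKM, Avil 1.11, Tas1r3 0.752 and Trpm5 0.656 RPKM. From Plcb2 down to Il25 the range of each gene overlapped that of its neighbour in this order. Gfi1b averaged 0.241 RPKM and Pou2f3 0.207, levels above 5.4% and 4.2% of the tested genes. Chat averaged 0.0817 RPKM and Il25 0.0145.

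**Figure D1:**
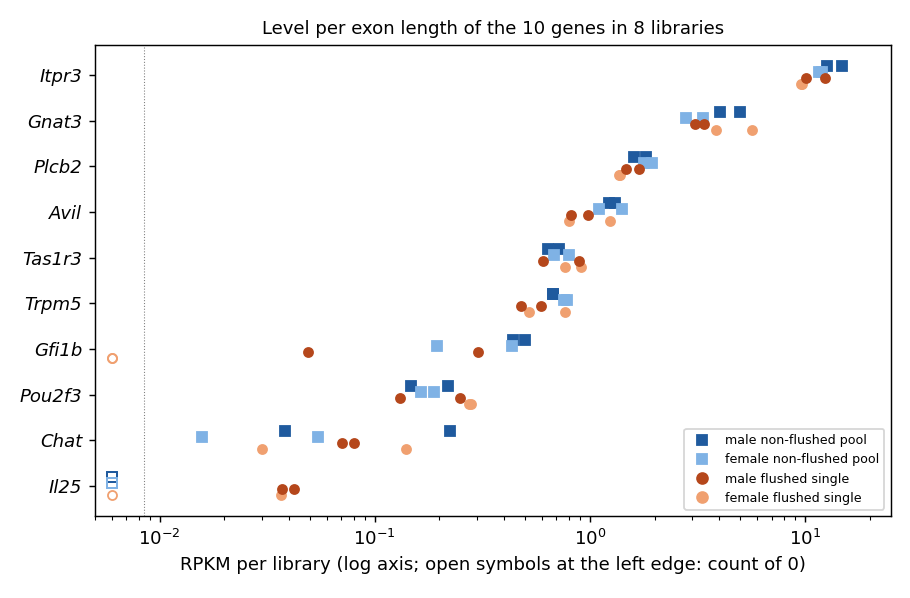
Level of each of the 10 genes in RPKM on a log axis, with 1 symbol per library coloured by group and open symbols at the left edge for a count of 0. Itpr3 lies apart at the top with 9.63 to 14.9 RPKM, and Il25 has a count of 0 in 5 of the 8 libraries.

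The receptor of the set is Tas1r3 (chr4:155859268-155863362, minus strand), the common subunit of the sweet and umami receptors. It was measured at 2.54 and 2.24 CPM in male pools 1 and 2, 2.83 and 2.40 in female pools 1 and 2, 3.20 and 2.7 in flushed females 2 and 3, and 2.14 and 3.15 in flushed males 1 and 3. The highest and the lowest value both came from flushed libraries, so the groups overlapped. The fitted log2 difference, flushed minus non-flushed, was 0.15 with a 95% interval from -0.22 to 0.52 (edgeR adjusted p = 0.476). The antisense neighbour Dvl1 overlaps exons of Tas1r3, and counting was stranded.

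Gnat3 (chr5:17962549-18019834, plus strand) was measured at 5.46 and 6.78 CPM in the male pools and 4.56 and 3.83 CPM in the female pools. Flushed females 2 and 3 gave 5.26 and 7.72 CPM, and flushed males 1 and 3 gave 4.6 and 4.18 CPM. Among the pools both male libraries stood above both female libraries, and among the flushed mice both females stood above both males. By preparation the log2 difference was 0.08, with an interval from -0.43 to 0.59 (edgeR adjusted p = 0.794), and by sex -0.03. The difference between the 2 sex contrasts was -1.10 ± 0.32 on the log2 scale (SE), with an unadjusted p of 0.00625 and an adjusted p of 1.00 in edgeR. Within males the flushed libraries were lower by preparation (log2 -0.48) and within females higher (0.63), and neither passed (edgeR adjusted p = 0.149 and 0.0632).

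Plcb2 (chr2:118707517-118728438, minus strand) encodes phospholipase C beta 2, which is also known from white blood cells. Its levels were 12.1 and 10.6 CPM in the male pools, 12.9 and 11.8 in the female pools, 9.04 and 9.09 in the flushed females, and 9.71 and 11.2 in the flushed males. The flushed libraries held the 3 lowest values, and flushed male 3 lay above male pool 2, so the ranges overlapped. Plcb2 fell from 11.8 ± 0.96 to 9.77 ± 1.03 CPM (SD, n = 4 libraries each), by 0.28 ± 0.10 on the log2 scale (edgeR adjusted p = 0.0462). This call was lost in 6 of the 8 fits that left out a library, all but those without male pool 2 or flushed male 3, with adjusted p up to 0.127. Within females the log2 difference was -0.44 and within males -0.11. The summed neutrophil genes were also lower by preparation, at 225 to 339 CPM in the pools and 41.8 to 184 CPM in the flushed libraries. Among the flushed libraries their sum was 184 CPM in flushed male 1 and 58.6 CPM in flushed male 3, where Plcb2 was highest. The 6 macrophage genes summed to 236 to 275 CPM in the pools and 234 to 269 CPM in the flushed libraries. The part of white blood cells in the Plcb2 result was not tested.

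Itpr3 (chr17:27057304-27122223, plus strand) is present in many epithelia besides chemosensory cells. It was measured at 134 and 114 CPM in the male pools, 108 and 104 in the female pools, 87.1 and 86.6 in the flushed females, and 90.9 and 111 in the flushed males. Flushed male 3 lay above both female pools, so the groups overlapped, and the other 3 flushed libraries lay below every pool. Itpr3 fell from 115.1 ± 13.2 to 93.8 ± 11.4 CPM, by 0.29 ± 0.07 on the log2 scale, or 1.23-fold (edgeR adjusted p = 0.00792). The call held in all 8 fits that left out a library, with adjusted p up to 0.0467. The log2 difference was -0.29 within females and -0.30 within males, where 2 libraries against 2 did not pass (edgeR adjusted p = 0.0788 and 0.0721).

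The call of Itpr3 also depended on the scaling. The summed level of the 10 pan-epithelial genes, such as Krt8 and Epcam, was 1670 to 1780 CPM in the pools and 1460 to 1560 CPM in the flushed libraries. With these genes as the library size, the log2 difference of Itpr3 was -0.09 (edgeR adjusted p = 0.429) and that of Plcb2 -0.07. With 8 genes of vomeronasal neurons as the library size, Trpc2 among them at 0, it was -0.11 for Itpr3 (edgeR adjusted p = 0.443). With no scaling factors it was -0.18 for Itpr3 (edgeR adjusted p = 0.0635). These scalings moved the median log2 difference of all tested genes from -0.02 to 0.19, 0.17 and 0.10.

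Trpm5 (chr7:143069153-143094642, minus strand) is the channel that depolarises taste and tuft cells. It was measured at 4.32 and 4.31 CPM in the male pools, 4.87 and 5.01 in the female pools, 3.32 and 4.90 in the flushed females, and 3.05 and 3.78 in the flushed males. Flushed female 3 lay among the pools, and the other 3 flushed libraries lay below all of them. The log2 difference by preparation was -0.30 with an interval from -0.63 to 0.03 and did not pass (edgeR adjusted p = 0.123). Over the 8 fits that left out a library it ran from -0.45, without flushed female 3, to -0.20. Only in the fit without flushed female 3 did Trpm5 pass. With the pan-epithelial genes as the library size the difference was -0.10 (edgeR adjusted p = 0.618).

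**Figure D2:**
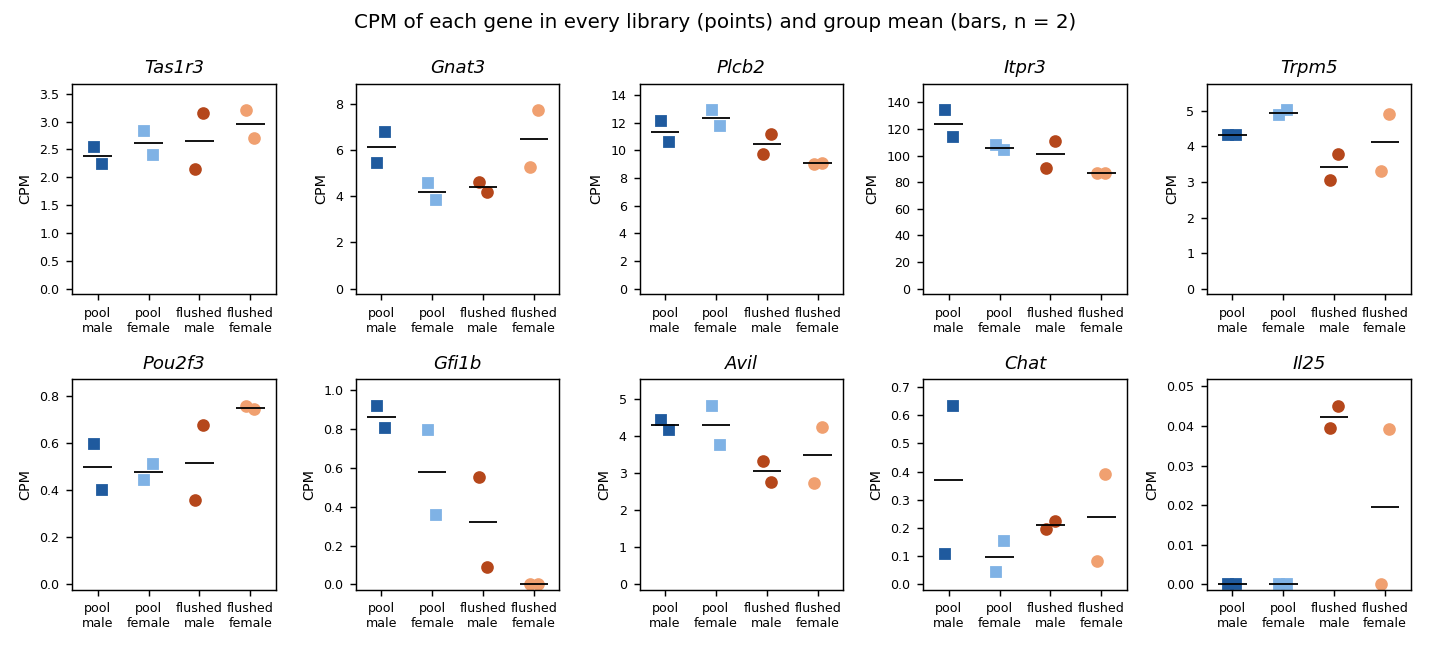
CPM of each of the 10 genes in every library, with 1 panel per gene on a linear axis from 0, points for libraries and bars for the mean of each group of 2. Male pools lie above female pools and flushed females above flushed males for Gnat3, and both flushed females have 0 CPM for Gfi1b.

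The transcription factors were near the limit of this depth. Pou2f3 (chr9:43123939-43210369, minus strand), without which these cells do not form, had 11 and 7 reads in the male pools, 10 and 10 in the female pools, 18 and 19 in the flushed females, and 9 and 15 in the flushed males. It was detected in all 8 libraries, at 0.357 to 0.757 CPM, and the groups overlapped. The log2 difference by preparation was 0.36, with an interval from -0.33 to 1.06 (edgeR adjusted p = 0.365), which leaves changes of either direction within the counting and library spread.

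Gfi1b (chr2:28609450-28621982, minus strand) encodes a repressor that marks tuft cells and is required in red cell and platelet precursors. It had 17 and 14 reads in the male pools, 18 and 7 in the female pools, 0 and 0 in the flushed females, and 14 and 2 in the flushed males. Flushed male 1 lay among the pools, and the other 3 flushed libraries lay below all of them. Gfi1b fell by 2.25 ± 0.71 on the log2 scale (edgeR adjusted p = 0.0252), the largest fitted difference of the 8 tested genes. Of the flushed libraries only flushed male 1 reached the low-count filter, so Gfi1b was kept through the pools. The size and rank of its fall are therefore a description. Summed over 2 libraries the female pools had 25 reads, at least 9.75-fold higher than flushed females in CPM when their count of 0 is set to a floor of 3 reads over the group. Within males, with 31 reads in the pools and 16 in the flushed mice, the log2 difference was -1.36 (edgeR adjusted p = 0.183).

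One library weighed on the size of this difference. Without flushed male 1 the log2 difference of Gfi1b was -4.32 (edgeR adjusted p = 0.002). Leaving out female pool 1, flushed female 2, flushed female 3 or flushed male 3 ended the call, with edgeR adjusted p of 0.0577, 0.0592, 0.0536 and 0.0763.

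The summed level of 11 erythroid genes followed the same order of groups. It was 1880 and 2070 CPM in the male pools, 1660 and 1700 in the female pools, 122 and 113 in the flushed females, and 612 and 632 in the flushed males. The most abundant of these genes, the globin gene Hbb-bs, averaged 643 CPM in the pools and 119 CPM in the flushed libraries. The 8 platelet genes had a median log2 difference of -1.17, and the 6 that fell included Ppbp (3.73-fold) and Itga2b (2.36-fold). Most of their summed level came from Vwf, which vessel walls also make, at 73.5 to 116 CPM per library. The other 7 summed to 32.7 and 32.5 CPM in the male pools, 39.1 and 24.6 in the female pools, 7.45 and 8.04 in the flushed females, and 27.5 and 19.6 in the flushed males. None of the erythroid or platelet genes was at 0 over all libraries. The part of either cell type in the Gfi1b result was not tested.

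**Figure D3:**
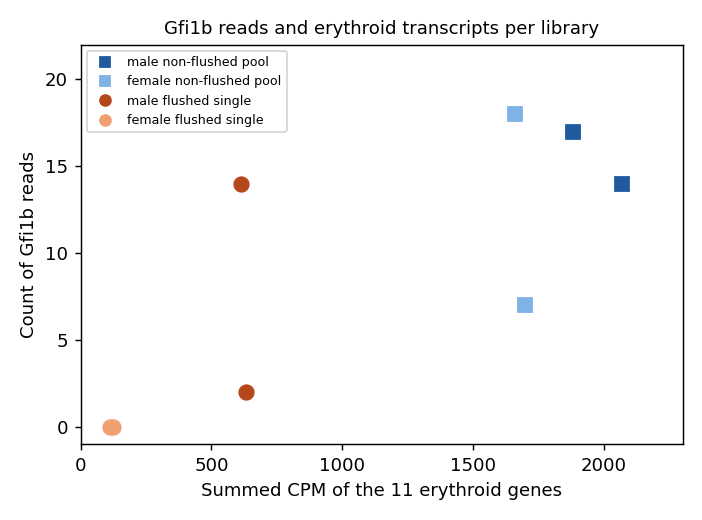
Reads of Gfi1b (vertical axis) against the summed CPM of 11 erythroid genes (horizontal axis), with 1 symbol per library coloured by group. The pools lie at the right with 7 to 18 reads, the flushed females at the lower left with 0 reads each, and the flushed males, near 612 and 632 CPM, have 14 and 2 reads.

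Avil (chr10:127000709-127020994, plus strand) encodes advillin, an actin-binding protein of tuft cells that sensory neurons also make. It was measured at 4.43 and 4.16 CPM in the male pools, 4.80 and 3.76 in the female pools, 2.73 and 4.23 in the flushed females, and 3.33 and 2.77 in the flushed males. Flushed female 3 again lay within the range of the pools, and the other 3 flushed libraries lay below it. The log2 difference was -0.39 ± 0.17 and did not pass (edgeR adjusted p = 0.081). Over the 8 fits that left out a library it ran from -0.56, without flushed female 3, to -0.29. Only in the fit without flushed female 3 did Avil pass. With the pan-epithelial genes as the library size the difference was -0.19 (edgeR adjusted p = 0.368). In 4 libraries the Avil count held a fraction of a multi-mapped read. Of 13 genes of autonomic and sensory ganglia 3 were tested. Prph, the most abundant, was lower in the flushed libraries by 0.46 on the log2 scale (edgeR adjusted p = 0.0202). All 13 genes summed to 19 to 31.2 CPM in the pools and 15.4 to 21.3 CPM in the flushed libraries. The part of nerve cells in the Avil levels was not tested.

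The output genes were barely detected. Chat (chr14:32408203-32465909, minus strand), the enzyme that makes acetylcholine, had 2 and 11 reads in the male pools, 1 and 3 in the female pools, 2 and 10 in the flushed females, and 5 and 5 in the flushed males. High and low counts occurred within a single group. The exact binomial 95% intervals of male pools 1 and 2 ran from 0.0131 to 0.39 CPM and from 0.315 to 1.13 CPM. The vesicular acetylcholine transporter gene Slc18a3 lies within the Chat gene on the same strand but shares no exon base with it, and had 7 reads over all libraries. Intervals and floors here cover counting error only, since the reads carry no molecular identifiers.

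Il25 (chr14:54932695-54935837, plus strand) had no read in the 4 pools and in flushed female 2, and 1 read each in flushed female 3 and flushed males 1 and 3. A count of 0 allows up to 3 reads, or 0.126 to 0.172 CPM in these 5 libraries, which is above the 0.0392 to 0.045 CPM that the single reads are worth. A difference of Il25 between the preparations was therefore not detectable at this depth.

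By preparation, 3 of the 8 tested genes were lower in the flushed libraries (Itpr3, Plcb2 and Gfi1b) and none was higher. Of all 20601 tested genes 45.5% differed by preparation, 22.9% being lower and 22.6% higher. A count of 3 in 8 is close to this background and is not a result about the set. The median log2 difference of the 8 genes was -0.29, beside -0.02 over all tested genes. It was -0.26 for the pan-epithelial genes, -0.18 for the vomeronasal neuron genes and 0.31 for the secretory microvillous genes described below. A median of this size is therefore not particular to the set. No gene of the set had flushed and non-flushed ranges that were separate. How many of all tested genes had separate ranges was not counted, so this is a description.

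**Figure D4:**
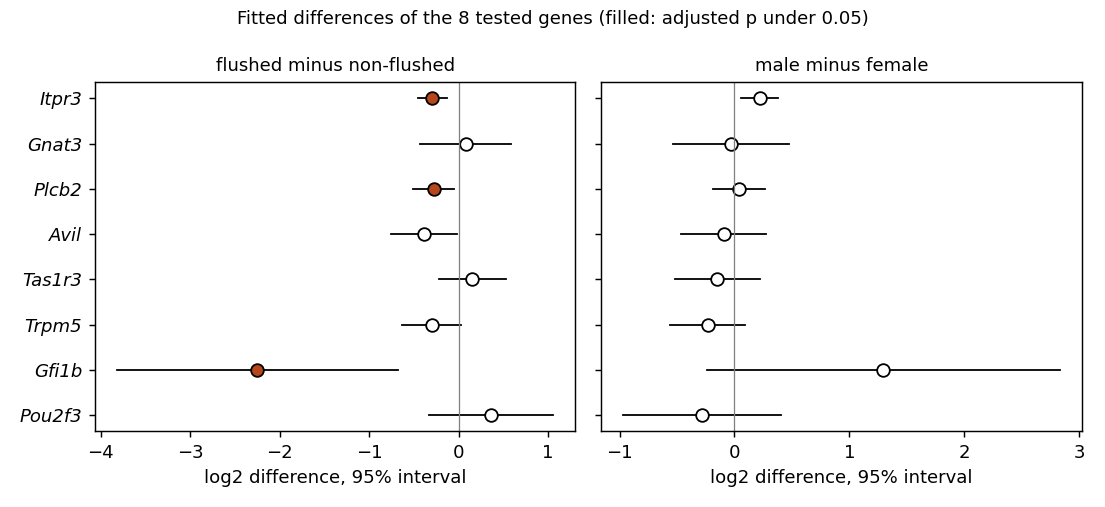
Fitted log2 differences of the 8 tested genes with 95% intervals, for flushed minus non-flushed (left) and male minus female (right), with filled symbols for an edgeR adjusted p under 0.05. Itpr3, Plcb2 and Gfi1b are filled on the left, no gene is filled on the right, and Gfi1b has the widest intervals.

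Between the sexes, none of the 8 genes passed in edgeR, DESeq2 or limma-voom, and 1 (Itpr3) had an unadjusted p under 0.05 in edgeR. Over all 20601 tested genes 24, or 0.116%, passed by sex, and 1640 had an unadjusted p under 0.05. Itpr3 averaged 112.4 ± 17.6 CPM in males and 96.4 ± 11.2 CPM in females (SD, n = 4 libraries each), with a log2 difference of 0.22 and an interval from 0.06 to 0.38 (edgeR adjusted p = 0.477). For Trpm5 the interval of the male minus female difference ran from -0.56 to 0.10, for Gnat3 from -0.54 to 0.48 and for Plcb2 from -0.18 to 0.27. Differences within these bounds are not excluded by a p that missed the threshold. Of the interaction of sex and preparation, edgeR called none of the 8 genes, and 2 (Gnat3 and Gfi1b) had an unadjusted p under 0.05. Over all tested genes 0.0485% passed that test, 10 in number, and 670 had an unadjusted p under 0.05.

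Across the 8 libraries Avil was the gene of the set whose level was most like that of Trpm5. The Pearson r of log2(CPM + 0.5) with Trpm5 was 0.74 for Avil, 0.50 for Plcb2, 0.32 for Itpr3, 0.18 for Gfi1b and Gnat3, 0.12 for Chat, 0.06 for Pou2f3, -0.04 for Tas1r3 and -0.34 for Il25. Of the 14515 genes compared, 646 had an r at least as high as that of Avil. The 5 genes most like Trpm5 were Ttc9 and Tmem107 (r = 0.97 each), Lrrc56 and Slc45a3 (0.96 each) and Mapkbp1 (0.96). The points share the preparation difference and their library's depth, so these values are a description.

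The further genes of the taste cascade were read from a list of 18, of which 12 were tested. By preparation 3 were higher and 2 lower in the flushed libraries, with a median log2 difference of 0.13. These 5 of 12 stand beside 45.5% of all tested genes. Gnb1, a widely made G protein beta subunit, rose from 263 ± 11.3 to 369 ± 35.7 CPM and the phospholipase gene Plcb1 from 15.96 ± 1.37 to 23.3 ± 2.80 CPM (edgeR adjusted p = 0.00048 and 0.000432). Snap25, a synaptic fusion protein, rose by 0.50 on the log2 scale (edgeR adjusted p = 0.000933). Trpm4, the close relative of Trpm5, fell from 43.97 ± 1.65 to 32.2 ± 1.58 CPM, and Plcb3 from 67.8 ± 2.18 to 52.5 ± 1.19 CPM (edgeR adjusted p = 0.000237 and 0.000244).

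The partners named next did not pass or were not tested, and none is known from these data to be restricted to taste-like cells. Gng13, the gamma subunit paired with gustducin, averaged 7.29 ± 2.01 CPM in the pools and 5.02 ± 0.873 in the flushed libraries (edgeR adjusted p = 0.051). Rgs21, a regulator of taste G proteins, averaged 1.04 and 1.45 CPM, and Gnb3, the beta subunit of taste cells, 1.34 and 1.49 CPM. Tas1r1, the umami partner of Tas1r3, had 40 reads over all libraries and Tas1r2, the sweet partner, had none. The taste channel genes Calhm1 and Calhm3 had 11 and 3 reads.

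Bitter receptor genes of the Tas2r family were represented by 40 genes, of which 16 had no read in any library and 4 were tested. By preparation 2 of the 4 were higher, beside 22.6% of all tested genes. A count over so few genes is not a result about the family. Tas2r108 (chr6:40493529-40494541, plus strand) was the most abundant. It was measured at 0.54 and 0.632 CPM in the male pools, 0.885 and 0.46 in the female pools, 1.18 and 1.68 in the flushed females, and 1.07 and 1.57 in the flushed males. All 4 flushed libraries lay above all 4 pools, and the gene rose from 0.629 ± 0.185 to 1.38 ± 0.299 CPM, by 1.11 ± 0.27 on the log2 scale (edgeR adjusted p = 0.00786). Over the 8 fits that left out a library the log2 difference ran from 0.95 to 1.32. Within females and within males, with 2 libraries against 2, the gene did not pass. It had 9 to 20 reads per pool library and 27 to 43 reads per flushed library.

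Tas2r135 (chr6:42405434-42406526, plus strand) had 68 reads in all and rose from 0.234 ± 0.0975 to 0.514 ± 0.132 CPM, by 1.14 ± 0.40 on the log2 scale (edgeR adjusted p = 0.0389). It met the low-count filter only through the flushed libraries, with 2 to 6 reads per pool library, so this rise is a description. DESeq2 did not call this gene. Its 2 ranges were separate, 0.102 to 0.324 CPM in the pools and 0.36 to 0.673 CPM in the flushed libraries. For neither Tas2r135 nor Tas2r108 was the share of all genes with separate ranges counted. The call of Tas2r135 was lost in 6 of the 8 fits that left out a library, all but those without male pool 1 or flushed male 3. Tas2r137 averaged 0.437 and 0.62 CPM and Tas2r126 averaged 0.376 and 0.234 CPM, and neither passed. No gene of the chemosensory set passed as higher beside these 2 receptors.

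**Figure D5:**
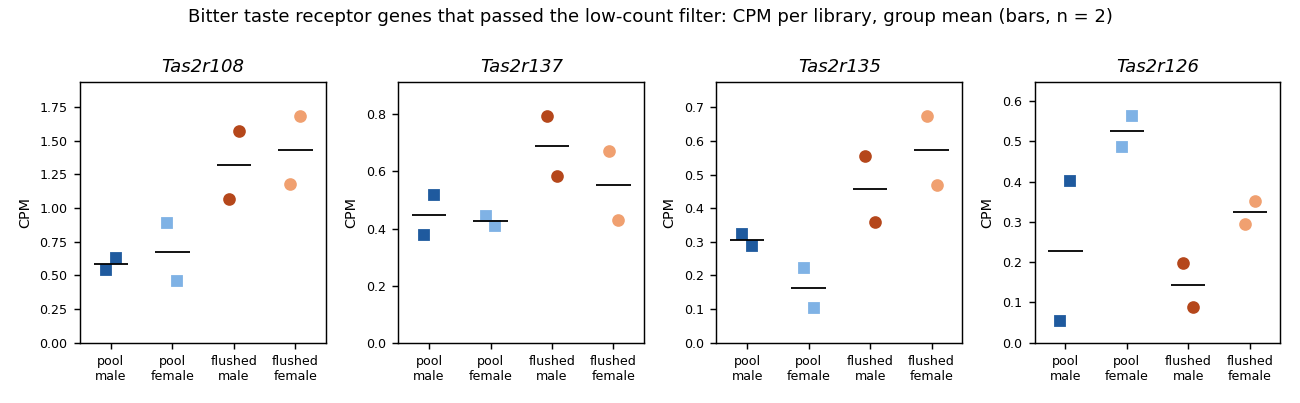
CPM of the 4 Tas2r genes that passed the low-count filter, in every library, with bars for the mean of each group of 2 on linear axes from 0. For Tas2r108 and Tas2r135 all flushed libraries lie above all pools, whereas for Tas2r137 and Tas2r126 the ranges overlap.

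Of 36 further tuft cell genes 27 were tested, and by preparation 4 were higher and 4 lower, with a median log2 difference of -0.14. These 8 of 27 stand beside 45.5% of all tested genes, so the count is not a result about tuft cells. Il13ra1, a receptor chain for the cytokine Il13, rose from 29.8 ± 2.50 to 55.4 ± 5.42 CPM (edgeR adjusted p = 4.0e-05). Nebl, an actin-associated protein, rose from 29.9 ± 1.63 to 52.8 ± 2.49 CPM (edgeR adjusted p = 1.4e-05). Dclk1, a kinase widely used to mark tuft cells and also made by neurons, rose by 0.25 on the log2 scale, and Runx1, a transcription factor, by 0.27. Without flushed female 3 the call of Runx1 was lost (edgeR adjusted p = 0.0581).

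Among the 4 that were lower, Vil1, the microvillus protein villin, fell from 130.4 ± 17.7 to 103.3 ± 4.0 CPM (edgeR adjusted p = 0.00956). Spib, a transcription factor of tuft cells and lymphocytes, fell by 0.99 on the log2 scale, Alox5, the leukotriene enzyme, by 0.69, and Ptgs1, the prostaglandin enzyme, by 0.21. Leaving out 1 library ended the call of Alox5 in all fits but those without male pool 1 or flushed male 1, and that of Ptgs1 in all but those without flushed female 3 or flushed male 3. The call of Spib was lost without male pool 1, female pool 1, flushed female 2 or flushed male 3. With the pan-epithelial genes as the library size, Vil1 (log2 -0.13), Ptgs1, Alox5 and Spib did not pass. Genes close to these cells such as Sh2d7, Sh2d6 and Rgs13 had 68, 27 and 33 reads in all, and the receptor gene Ffar3 had none.

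Of 8 cholinergic genes 5 were tested and 1 passed by preparation, with a median log2 difference of -0.10. Bche, an esterase that breaks down choline esters, was higher in the flushed libraries by 0.68 on the log2 scale (edgeR adjusted p = 0.0162). Its level was 9.78 and 8.56 CPM in the male pools, 5.00 and 3.63 in the female pools and 9.63 to 10.7 CPM in the flushed libraries, so the female pools were the low libraries. Without female pool 1 it did not pass (edgeR adjusted p = 0.0535). Slc5a7, which takes up choline, averaged 0.899 CPM in the pools and 1.52 CPM in the flushed libraries and did not pass.

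Of 14 genes of the type 2 immune response 7 were tested and 1 passed, with a median log2 difference of -0.20. Crlf2, the receptor chain for Tslp, was lower in the flushed libraries by 0.58 on the log2 scale, from 8.69 ± 1.97 to 5.82 ± 0.906 CPM (edgeR adjusted p = 0.0121). It did not pass without male pool 2 (edgeR adjusted p = 0.0556), with library sizes from pan-epithelial or neuron genes (0.0744 and 0.0513), or within females or males alone (0.103 and 0.0869). Il33, an alarm cytokine of epithelia, averaged 28.2 CPM in the pools and 31.4 CPM in the flushed libraries. The cytokine genes Il4, Il5 and Il13 had 6, 3 and 1 reads over all libraries.

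Secretory microvillous cells, the other known microvillous epithelial type of the nose, were read from 6 genes, all tested. Cftr, the chloride channel, rose from 19.3 ± 2.68 to 42.4 ± 9.50 CPM, by 1.13 on the log2 scale (edgeR adjusted p = 0.000335), and Coch by 0.47 (edgeR adjusted p = 0.00367). The other 4 did not pass, Ascl3 averaging 1.32 and 1.33 CPM and Foxi1 0.609 and 1.37 CPM. The median log2 difference of the 6 genes was 0.31. Over the 6 lists together, with 61 different genes tested, edgeR called 19 by preparation, beside 45.5% of all tested genes. By sex and by the interaction it called none, with 12 and 5 at an unadjusted p under 0.05. Over all 20601 tested genes 1640 and 670 had such a p, as given above.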

How the data were processed

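Gene expression was measured by stranded, polyA-selected RNA sequencing of 8 libraries, read as single ends, per the labels' protocols. The submitters' processing notes name STAR 2.7.1a for alignment and featureCounts 1.6.5 for counting. Per the file headers, the authors deposited expected counts for each gene of GRCm38, taken from an Ensembl annotation that they had changed, and the counts are not normalized. Multi-mapped reads were divided among their genes, which left 10.16 to 11.79% of genes per library without a whole count. Symbols came from GENCODE M21 for 48422 of 48831 genes.

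The set of 10 genes and the other gene lists were chosen with earlier results of these data known. Of 217 list symbols 214 were found. Counts were rounded and tested with the quasi-likelihood F test of edgeR 4.0.16 in R 4.3.3, using TMM scaling, filterByExpr on the 4 groups, and sex and preparation as additive terms. The interaction was tested in a further fit. Adjusted p-values are Benjamini-Hochberg values over all 20601 genes tested, with a threshold of 0.05. Differences by preparation or sex set 4 libraries against 4, and the interaction rests on groups of 2. CPM values are unrounded counts per 1000000 of the TMM-adjusted library size, and RPKM values use the exon length of the files. Floors are 3 counts.

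Each gene of the set is named. Of other lists the text names at most the 4 genes with the smallest p past the threshold in each direction and the most abundant marker of other cell types. Genes named without a call, such as Gng13, Rgs21, Tas1r2, Ascl3, Il33, Sh2d7 and Muc5ac, were chosen after their values were seen. The script was tested on simulated data. Alternatives were DESeq2 1.42.0, limma-voom (limma 3.58.1), 4 other scalings, no filter, no covariate, fits within 1 sex, and leaving out each library. The sex difference within each preparation was added after seeing the data. Labels name separate mice or pools of mice as the replicates. The single-cell data of the study were not analysed here.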

Additional observations from a re-analysis of the deposited data

Results flagged for a closer look

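All 10 genes were examined for sexes that lay apart in opposite directions in the 2 preparations, and Gnat3, the gustducin gene, was flagged. Each group had 2 libraries, and how often all genes show this pattern was not counted. Both male pools (5.46 and 6.78 CPM) lay above both female pools (4.56 and 3.83 CPM), and both flushed females (5.26 and 7.72 CPM) lay above both flushed males (4.6 and 4.18 CPM). The difference between the sex contrasts was -1.10 on the log2 scale, with an unadjusted p of 0.00625 and an adjusted p of 1.00 in edgeR over all tested genes. With no low-count filter it was -1.12 and passed (edgeR adjusted p = 0.0268), a setting under which 263 genes passed in place of 10.

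Gfi1b in flushed male 1, at 0.555 CPM, stood far from the other 3 flushed libraries, which had 0, 0 and 0.09 CPM. Il25 in flushed female 2, at 0.0 CPM, was the one flushed library without a read, the other 3 having 1 read each. That gap is set by the step from 0 to 1 read and shows no difference between these libraries. In all, 19 sets of 4 libraries of 1 preparation were examined, each spanning both sexes, and 2 held a library that stood apart in this way. Chance gives about 1 in 20.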

How the results depend on the processing

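Itpr3 kept its preparation call without any single library, and Plcb2 and Gfi1b did not. With no scaling factors, or with library sizes from pan-epithelial or neuron genes, 1 gene of the set (Gfi1b) passed by preparation in place of 3. Among genes called by preparation the share that was higher was then 68, 80.7 and 77.9%, against 49.7% with TMM. DESeq2 did not call Plcb2 (adjusted p = 0.082), and edgeR with no filter did not either (0.0894). Without sex as a covariate Gfi1b did not pass (edgeR adjusted p = 0.0502). Leaving out 1 library gave 7734 to 9047 genes and 1 to 3 of the set by preparation, the lowest without female pool 1 or flushed female 2. By sex it gave 8 to 25 genes (8 without male pool 1, 12 without female pool 1, 15 without flushed female 3), and by the interaction 4 to 18 (4 without flushed female 3, 18 without female pool 2, 5 without flushed male 3, 6 without male pool 1 or flushed male 1). None of the set passed by sex or interaction in these fits. Genes called by sex numbered 24, but 124 with DESeq2, 784 with no filter, 11 with neuron genes as library size and 7 without preparation as a covariate. Interaction calls numbered 28 with DESeq2 and 263 with no filter, 1 of them Gnat3.

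Directions that turned were all of differences that did not pass. By preparation Gnat3 was -0.48 within males. By sex, within the pools, Gnat3 was 0.54, Pou2f3 0.073 and Plcb2 -0.12, and with no scaling factors Plcb2 was -0.077. With no scaling factors the interaction of Itpr3 was 0.050 and that of Tas1r3 0.036. Leaving out 1 library gave -0.16 to 0.27 for Gnat3 by preparation. By sex it gave -0.20 to 0.21 for Gnat3, -0.032 to 0.11 for Plcb2 and -0.19 to 0.069 for Avil. Interactions ran from -0.34 to 0.23 for Trpm5, -0.16 to 0.13 for Itpr3, -0.48 to 0.17 for Avil and -0.33 to 0.23 for Tas1r3. The causes were not tested. The order of the 10 levels was the same in TPM as in RPKM. No paired analysis was possible because the labels give the pools no replicate numbers (theirs follow listed order and pair nothing), and the flushed females and males share only number 3. Depth limits Il25, Chat, Pou2f3 and Gfi1b most.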

Other observations

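Mucous genes of the type 2 list differed widely between libraries. Muc5ac, a secreted mucin, was at 63.3 and 74.2 CPM in the male pools, 257 and 45.8 in the female pools, 99.9 and 247 in the flushed females, and 18.3 and 20.1 in the flushed males. The highest 2 values were in female libraries of different preparations, and the lowest 2 in flushed males. Clca1, a goblet cell product, had its highest value, 2.59 CPM, in flushed female 3. Neither gene passed by sex (edgeR adjusted p = 0.398 and 0.409) or by preparation.

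Of 7 genes of T and innate lymphoid cells 3 were higher and 1 lower in the flushed libraries. Over all tested genes 22.6% were higher and 22.9% lower. Il7r, the interleukin 7 receptor, rose from 2.64 ± 0.642 to 6.18 ± 1.43 CPM (edgeR adjusted p = 0.000378), Rora, a transcription factor also made outside lymphocytes, from 98.6 ± 6.56 to 141.3 ± 3.53 CPM, and Trac, the T cell receptor constant chain, from 0.392 ± 0.183 to 1.02 ± 0.207 CPM. Thy1, which neurons also make, fell from 15.8 ± 2.80 to 10.8 ± 0.549 CPM. The median log2 difference of the 7 genes was 0.52, beside -0.02 over all tested genes.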
